A study of Homo sapiens with 3 samples.

Results

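The genes of sterol and fatty acid synthesis were followed on 3 arrays of BE(2)-C cells, 1 with a control siRNA and 2 with siRNAs against the chromatin protein WDR5. A list of 37 genes was drawn up by their place in the pathway, with earlier results of these data known. A gene was taken as measured where the platform annotation gave its symbol. That held for 30 of the 37, out of 14884 named genes on the array, and where a gene had more than 1 probe set the set with the highest mean over the arrays stood for it. The 30 genes comprised 5 regulators, 7 of 8 listed genes of the mevalonate route, 8 of 11 genes acting from squalene to cholesterol, 1 of 4 genes of sterol transport, and 9 of 9 genes of fatty acid and glycerolipid synthesis. FDFT1, LSS, CYP51A1, SC5D, NPC1, ABCA1 and ABCG1 were not analysed here.

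BE(2)-C is a human neuroblastoma cell line that carries an amplified MYCN oncogene, and all 3 cultures shared this background. Cells received either a control siRNA or a WDR5 siRNA, siRNA-1 or siRNA-2, for 40 hours, and each of the 3 groups was represented by 1 Affymetrix HuGene-2_0-st array. WDR5 holds together the MLL-type enzyme complexes that place methyl groups on a histone H3 lysine near active promoters. The series sets the knockdown beside the transcription programme of N-Myc, the protein made from MYCN. Because no group had a replicate, no value below has an error and no test of a condition was possible. The deposited scale was read as log2, on which all folds depend. Every difference compares a pair of arrays, and both differences from control rest on the same control array.

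Cholesterol is built from acetyl-CoA through mevalonate, farnesyl diphosphate and squalene, and fatty acids are built from the same precursor by a separate set of enzymes. Transcription of both sets is driven by the sterol regulatory element binding proteins SREBP-1 and SREBP-2, the products of SREBF1 and SREBF2. These are held in the endoplasmic reticulum by SCAP and the INSIG proteins when sterol is plentiful, and are released to the nucleus when it is scarce. SREBPs usually act on promoters together with NF-Y, a factor that binds the CCAAT box. Nerve-derived cells make most of their cholesterol themselves.

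The targeted transcript was checked before the lipid genes were read. WDR5 had a log2 level of 9.46 with control siRNA and 7.90 with each WDR5 siRNA. It was thus lower on both arrays, but the value of 7.90 is an exact tie and lies within the range of the background probe groups given below, so the size of the difference is uncertain. Of 10 adrenergic neuroblastoma markers 9 were measured, with median levels of 10.39, 10.04 and 10.47 on the control, siRNA-1 and siRNA-2 arrays. TH, the noradrenaline pathway's entry enzyme, was at 7.29 on all of them. DBH, a later enzyme of that pathway, was at 10.39, 9.58 and 10.90, and CHGA, a granule protein, at 10.87, 10.40 and 11.60, so siRNA-1 was the lowest and siRNA-2 the highest array for both. PHOX2A (9.42, 9.23 and 9.46), GATA2 (10.86, 10.77 and 11.14) and CHGB (9.99, 9.85 and 10.22) had this order too. ISL1 (9.81, 10.04 and 10.21) was highest with siRNA-2 and lowest with control. HAND2 (11.60, 11.58 and 11.25) and GATA3 (10.79, 10.78 and 10.47), both transcription factors, were lowest with siRNA-2. The part of these markers in the lipid results was not tested. Of 14 markers of Schwann, fibroblast, leukocyte, endothelial and liver cells 8 were measured, with a median of 6.16 on each array, and their summed log2 levels were 48.36, 49.33 and 49.26. PECAM1, of endothelium, moved most among these, at 4.29, 4.88 and 5.12, and its part in the results was not tested. The array's 23 background probe groups ranged from 1.75 to 9.26, and 17 of the 30 lipid genes lay above 9.26 on all arrays. SREBF1, SCAP, INSIG2, MVK, PMVK, MVD, IDI1, FDPS, TM7SF2, HSD17B7, ACSS2, FADS2 and LPIN1 did not. A value was repeated exactly on all 3 arrays in 34.5% of named genes, but in 1 of the 30 lipid genes, INSIG2.

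With siRNA-2 most of the lipid genes were higher than control. Of the 30 genes, 25 were higher than control by any amount, against 25.3% of all named genes, and 2 were lower, against 27.8%. The remaining 3 equalled control exactly, as did 46.9% of all named genes, and these ties lower the background of both directions. Genes at least 1.5-fold higher (a log2 difference of at least 0.585) numbered 6, or 20.0% of the 30, where 1.34% of all named genes were that much higher. The 6 were ACAT2, HMGCS1, MVD, NSDHL, DHCR7 and ACSS2. By contrast, 0 of the 30 were 1.5-fold lower with siRNA-2, against a background of 2.37%. The median difference of the 30 genes was 0.31 (log2), from -0.25 for LPIN1 to 0.82 for ACAT2, and the median of all named genes was 0.00. Among named genes at or above the array's median level, where 28 of the 30 lipid genes lay, 2.19% were 1.5-fold higher. Because the list was chosen with earlier results of these data known, these shares describe the 30 genes and are no test of the pathway.

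With siRNA-1 the same genes were spread around control. Of the 30, 17 were higher than control (background 27.1%), 9 lower (29.4%) and 4 exactly equal (43.5%), with a median of 0.01 and a range from -1.75 for ERG28 to 0.71 for INSIG1. INSIG1 alone was 1.5-fold higher, against 1.55% of named genes, and ERG28 and SCD were 1.5-fold lower, against 2.77%. With the arrays centred on the median of named genes, DHCR7 joined INSIG1, so that 2 genes were higher and 2 lower. Set directly against each other, siRNA-1 was below siRNA-2 in 24 of the 30 genes (background 29.3%), above it in 3 (background 29.3%) and equal in 3 (background 41.4%). Of the 30, 4 were at least 1.5-fold lower with siRNA-1, TM7SF2, ERG28, ACSS2 and SCD (background 2.8%), and 0 were 1.5-fold higher (background 2.63%). Among named genes at or above the median level the shares were larger. With siRNA-1, 2.24% of those were 1.5-fold above control and 4.60% below it. Against siRNA-2, 4.21% were 1.5-fold higher with siRNA-1 and 4.65% lower.

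The order of the arrays within each gene was also counted, which needs no ratio. The siRNA-2 array was the highest of the 3 in 22 of the 30 genes, against 16.6% of all named genes and 21.2% of those at or above the median level. The control array was the lowest in 16 of the 30, against 13.0% and 18.0%. The siRNA-1 array was the lowest in 9, against 20.1% and 25.0%, and the highest in 2, INSIG1 and FADS2, against 19.6% and 28.7%. By role, the siRNA-2 array was the highest in 6 of 7 mevalonate genes and 7 of 8 post-squalene genes, 6 of 9 fatty acid genes, 2 of 5 regulators and in STARD4.

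**Figure D1:**
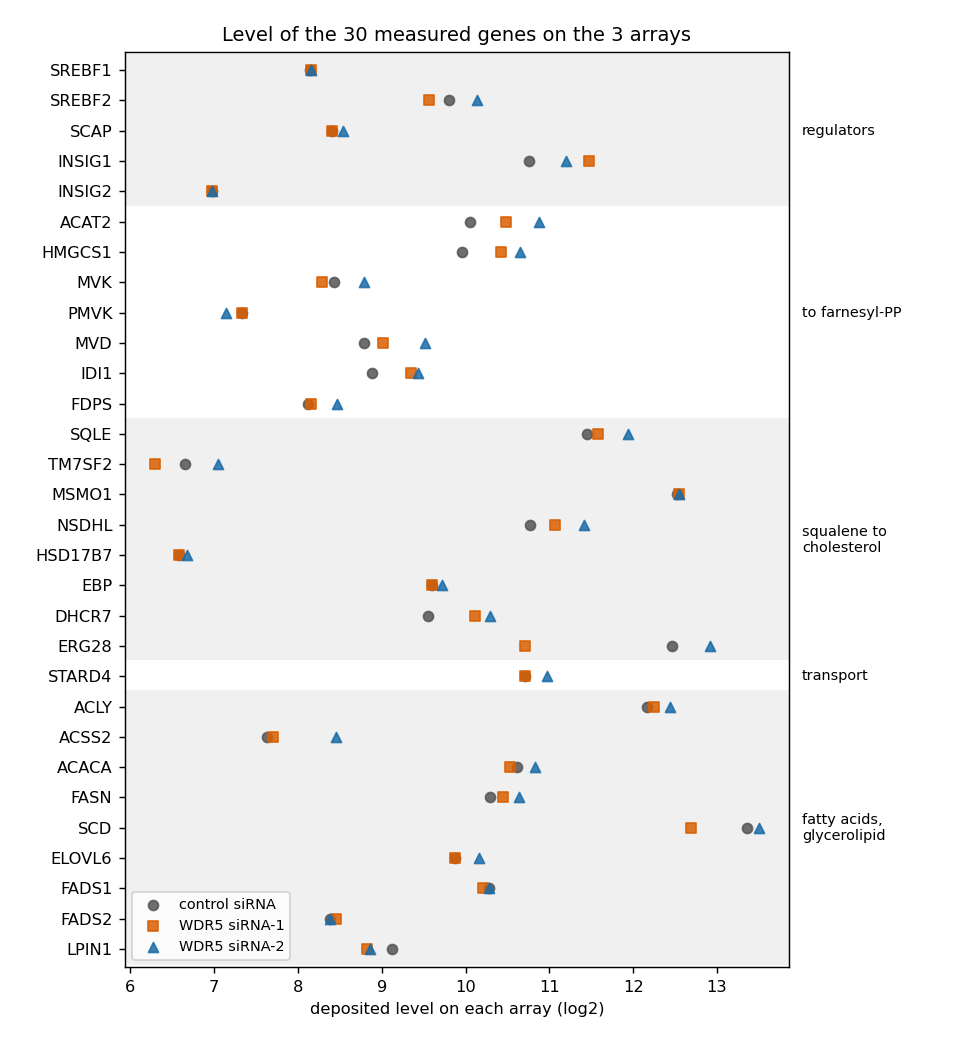
Deposited log2 level (horizontal axis) of each of the 30 measured genes on the control siRNA (grey circles), WDR5 siRNA-1 (orange squares) and WDR5 siRNA-2 (blue triangles) arrays, 1 array per group and hence no error bars, with genes ordered along the pathway. The blue triangle is the rightmost mark in 22 of the 30 rows, and the orange square of ERG28, at 10.71, stands far to the left of its control at 12.47.

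**Figure D2:**
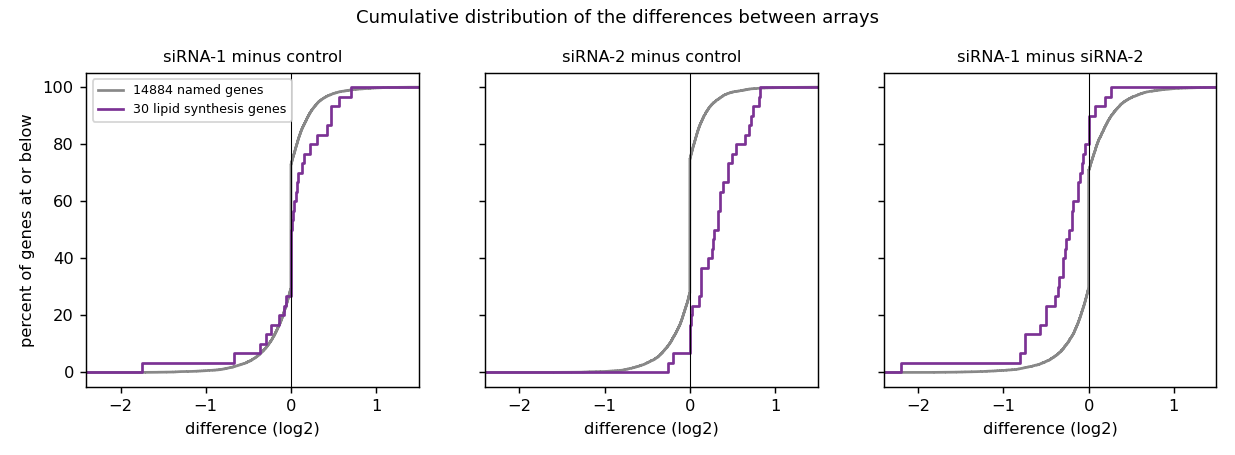
Cumulative percent of genes (vertical axis) at or below each log2 difference (horizontal axis) for the 30 lipid genes (purple) and the 14884 named genes (grey), for siRNA-1 minus control, siRNA-2 minus control and siRNA-1 minus siRNA-2. The lipid genes lie to the right of the named genes for siRNA-2 minus control, with medians of 0.31 and 0.00, and to the left for siRNA-1 minus siRNA-2, with medians of -0.22 and 0.00.

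The promoters of these genes were searched for sites of SREBP, NF-Y and MYC proteins as a description of sequence. RefSeq promoter windows (GRCh38.p14, 250 bases before and 50 after a start site) were found for 27 of the 30 measured genes, in 39 windows. ACAT2, SQLE and FASN were not among them. The CCAAT motif, read on either strand, lay in a window of 20 of the 27 genes (74.1%), against 41.4% of the 10749 named genes with a window and 34.6% of all 35116 windows of the same length. By window rather than by gene, 23 of the 39 held it (59.0%). It was present in all 7 post-squalene genes with a window, 5 of 6 mevalonate genes, 5 of 8 fatty acid genes and 2 of 5 regulators, and 15 of the 20 genes had more than 1 match in a window. MVK and NSDHL had 5 each, the NSDHL count including a pair that overlaps. The share of all named genes with more than 1 match was not counted, so these numbers have no background. The SREBP motif TCACNCCAC was found in SREBF2 alone of the 27, against 1.44% of named genes, and the E-box CACGTG, a site class that MYC proteins bind, in SCAP and INSIG1 (7.41% against 11.0% of named genes). A shorter form, CACNCCAC, which lies within TCACNCCAC and was added after the matches were seen, occurred in SREBF2, INSIG1, IDI1, ACACA and SCD (18.5% against 7.87%). A match describes letters in a window and is not a measured binding site.

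The 250 bases before the start site are printed for 6 genes, 5' to 3' on the gene's own strand, with all matches to CCAAT, TCACNCCAC and CACGTG (either strand) in capitals. They were picked to show the regulator gene with the SREBP motif, the feedback gene with an E-box, 3 genes that were 1.5-fold higher with siRNA-2, and the gene that differed most between the siRNAs.
SREBF2 (chr22:41832855-41833104, plus strand): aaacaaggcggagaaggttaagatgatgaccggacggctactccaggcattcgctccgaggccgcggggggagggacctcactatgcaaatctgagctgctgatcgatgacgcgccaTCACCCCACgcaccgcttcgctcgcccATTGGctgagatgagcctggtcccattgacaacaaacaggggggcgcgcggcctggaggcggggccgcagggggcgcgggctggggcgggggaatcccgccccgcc
INSIG1 (chr7:155297628-155297877, plus strand): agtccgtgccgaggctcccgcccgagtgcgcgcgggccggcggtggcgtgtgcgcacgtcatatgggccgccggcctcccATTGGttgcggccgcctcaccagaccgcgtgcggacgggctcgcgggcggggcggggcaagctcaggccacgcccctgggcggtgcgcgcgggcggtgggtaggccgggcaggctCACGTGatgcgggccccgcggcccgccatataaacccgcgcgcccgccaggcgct
HMGCS1 (chr5:43313413-43313662, minus strand): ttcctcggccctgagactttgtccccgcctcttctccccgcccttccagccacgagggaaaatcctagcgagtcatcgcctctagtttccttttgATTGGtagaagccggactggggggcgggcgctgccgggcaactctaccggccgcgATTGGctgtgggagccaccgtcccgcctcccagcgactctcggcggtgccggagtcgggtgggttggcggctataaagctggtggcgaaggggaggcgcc
MVD (chr16:88663092-88663341, minus strand): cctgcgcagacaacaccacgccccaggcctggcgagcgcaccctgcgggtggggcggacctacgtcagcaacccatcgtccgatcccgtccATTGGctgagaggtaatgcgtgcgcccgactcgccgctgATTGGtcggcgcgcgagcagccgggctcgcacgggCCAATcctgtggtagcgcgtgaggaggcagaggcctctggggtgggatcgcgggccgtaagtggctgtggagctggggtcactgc
NSDHL (chrX:152830813-152831062, plus strand): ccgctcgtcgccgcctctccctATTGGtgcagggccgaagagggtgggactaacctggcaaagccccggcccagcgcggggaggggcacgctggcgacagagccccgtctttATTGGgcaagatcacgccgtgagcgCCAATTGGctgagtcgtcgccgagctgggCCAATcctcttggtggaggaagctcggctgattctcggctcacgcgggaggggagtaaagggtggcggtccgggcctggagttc
ERG28 (chr14:75660877-75661126, minus strand): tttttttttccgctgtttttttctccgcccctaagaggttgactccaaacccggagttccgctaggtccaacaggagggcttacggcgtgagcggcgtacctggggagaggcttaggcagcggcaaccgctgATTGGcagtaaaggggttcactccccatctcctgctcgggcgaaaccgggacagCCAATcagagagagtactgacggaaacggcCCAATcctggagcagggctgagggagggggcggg

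These sequences show how the matches are laid out. Some printed genes have an opposite-strand start nearby: INSIG1-DT at -220 bases from INSIG1 and SNAI3-AS1 at -282 from MVD. CETN2 starts at -306 from NSDHL and TTLL5 at -370 from ERG28. Which of the genes a match belongs to was not tested. In SREBF2 the SREBP motif begins 133 bases and the CCAAT match 106 bases before the start site. HMGCS1 and MVD carry 2 and 3 CCAAT matches between 159 and 85 bases upstream, and in NSDHL a pair overlaps at 113 and 110 bases. ERG28 has matches at 118, 64 and 34 bases. It was 3.37-fold below control with siRNA-1 and 1.36-fold above it with siRNA-2, and the part of the motif was not tested. The 20 genes with a CCAAT match had a median siRNA-2 difference of 0.35 (log2, from 0.00 to 0.81), and the 7 without one had a median of 0.00 (from -0.25 to 0.28). ACAT2, SQLE and FASN, without a window, are in neither set. Match and role overlap, with matches in 5 of 6 mevalonate and 7 of 7 post-squalene genes. Regulators had them in 2 of 5 and fatty acid genes in 5 of 8, so motif and role cannot be told apart here. Over all named genes the medians with and without a match were both 0.00, and 1.32% and 1.29% were 1.5-fold higher with siRNA-2. With 46.9% of all named genes exactly equal to control, such medians tend to 0.00 and cannot show whether the motif goes with a difference.

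**Figure D3:**
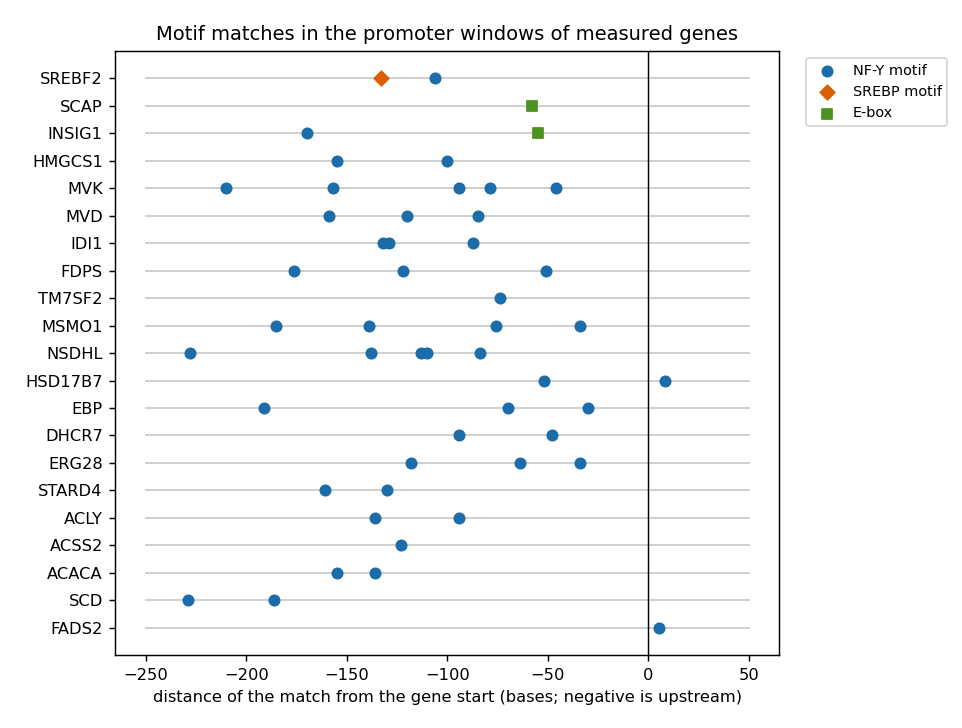
Distance in bases of each NF-Y motif (blue circles), SREBP motif (orange diamond) and E-box match (green squares) from the gene's start site (vertical line at 0), for the 21 measured genes with a match, using the window with the most NF-Y matches where a gene had several. Grey lines mark the searched window from 250 bases before to 50 after the start, and all but 2 NF-Y matches, those of HSD17B7 and FADS2 after the start, lie upstream.

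Among the regulators, the feedback gene and the transcription factor genes behaved unlike each other. INSIG1, a sterol-responsive retention protein and itself an SREBP target, had levels of 10.76 with control, 11.47 with siRNA-1 and 11.20 with siRNA-2. Both WDR5 siRNA arrays stood above control, by 1.63-fold and 1.36-fold, and this was the sole regulator whose siRNA-1 value was the highest. Its paralogue INSIG2, which also retains SCAP, was at 6.97 on all 3 arrays. SREBF2, whose product mainly drives the cholesterol genes, had levels of 9.81, 9.57 and 10.14 in the same order. The siRNA-1 array was thus 1.18-fold below control and the siRNA-2 array 1.26-fold above it, and they were 1.49-fold apart, just under the 1.5-fold limit. SREBF1, whose product mainly drives fatty acid genes, was at 8.15, 8.16 and 8.16, and SCAP, the escort protein, was at 8.41, 8.41 and 8.54. The median of the 5 regulators was 0.00 with siRNA-1 and 0.13 with siRNA-2.

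The mevalonate genes were the group with the highest medians, 0.22 with siRNA-1 and 0.55 with siRNA-2 (log2, 7 genes). ACAT2, which joins acetyl-CoA units in the cytosol, stood at 10.06 with control, 10.48 with siRNA-1 and 10.88 with siRNA-2. These are 1.34-fold and 1.77-fold above control, and the siRNA-2 difference was the highest of the 30 genes. HMGCS1, the synthase that makes HMG-CoA, stood at 9.96, 10.42 and 10.65, or 1.38-fold and 1.62-fold above control. MVD, the decarboxylase that yields isopentenyl diphosphate, stood at 8.79, 9.01 and 9.51. Its siRNA-2 value was 1.65-fold above control, while siRNA-1 lay closer to control, 1.17-fold above it. The control and siRNA-1 levels of MVD lie within the background range. IDI1, the isomerase of that product, was at 8.88, 9.35 and 9.43, so its siRNA arrays differed from each other by 1.05-fold and from control by 1.39-fold and 1.46-fold.

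The kinases of the route did not share this order. MVK, which phosphorylates mevalonate, was at 8.43, 8.29 and 8.79, lowest with siRNA-1 and 1.28-fold above control with siRNA-2. PMVK, which adds the next phosphate, was at 7.33, 7.33 and 7.14, and was the sole one of the 21 sterol genes among the 30 that was lower than control with siRNA-2. FDPS, the farnesyl diphosphate synthase, was at 8.13, 8.16 and 8.46 on its higher probe set. Its other set, at 6.12, 5.65 and 6.32, was 1.38-fold below control with siRNA-1, so the sets differ there, while both were higher than control with siRNA-2. Both FDPS sets lie within the background range. FDPS has processed pseudogenes that probes can also read.

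The 8 post-squalene genes were all higher than control with siRNA-2, with a median of 0.42, and had a median of 0.01 with siRNA-1. DHCR7, which reduces the last double bond on the way to cholesterol, had levels of 9.55 with control, 10.11 with siRNA-1 and 10.29 with siRNA-2. Both siRNA arrays were above control, by 1.47-fold and 1.67-fold. NSDHL, a dehydrogenase that helps to remove sterol methyl groups, was at 10.77, 11.07 and 11.42, 1.23-fold and 1.57-fold above control. SQLE, the oxygenase that opens the post-squalene route and is a rate-limiting enzyme, was at 11.45, 11.58 and 11.94, and its siRNA-2 array was 1.40-fold above control. TM7SF2, a sterol reductase, was at 6.66, 6.30 and 7.05, so that control lay between the siRNAs, which were 1.68-fold apart. These levels are within the range of the background probe groups.

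Smaller differences were found in the rest of this group. EBP, a sterol isomerase, was at 9.60, 9.60 and 9.72. HSD17B7, a sterol keto reductase with a near-identical pseudogene, was at 6.58, 6.58 and 6.68. MSMO1, the methyl sterol oxygenase, was at 12.52, 12.54 and 12.54, which places it 1.01-fold above control with each siRNA. MSMO1, NSDHL and HSD17B7 act together in removing a pair of methyl groups from the sterol ring, and they covered the range from 1.01-fold to 1.57-fold with siRNA-2.

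ERG28 had the widest spread of the 30 genes. Its product is a small membrane protein of the endoplasmic reticulum that holds these enzymes together. It stood at 12.47 with control, 10.71 with siRNA-1 and 12.91 with siRNA-2. The siRNA-1 value was 29.7% of control, or 3.37-fold lower, while the siRNA-2 value was 1.36-fold higher, and the siRNAs were 4.59-fold apart. Of the enzymes that ERG28 tethers, NSDHL was 1.23-fold and MSMO1 1.01-fold above control with siRNA-1. HSD17B7 equalled control exactly, at a level within the background range. Of all named genes, 29.4% were lower than control with siRNA-1. A link of these values to ERG28 was not tested. ERG28 was read by 1 probe set, so no other set was there to compare. Without it, the remaining post-squalene genes ranged from -0.36 to 0.56 (log2) with siRNA-1.

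**Figure D4:**
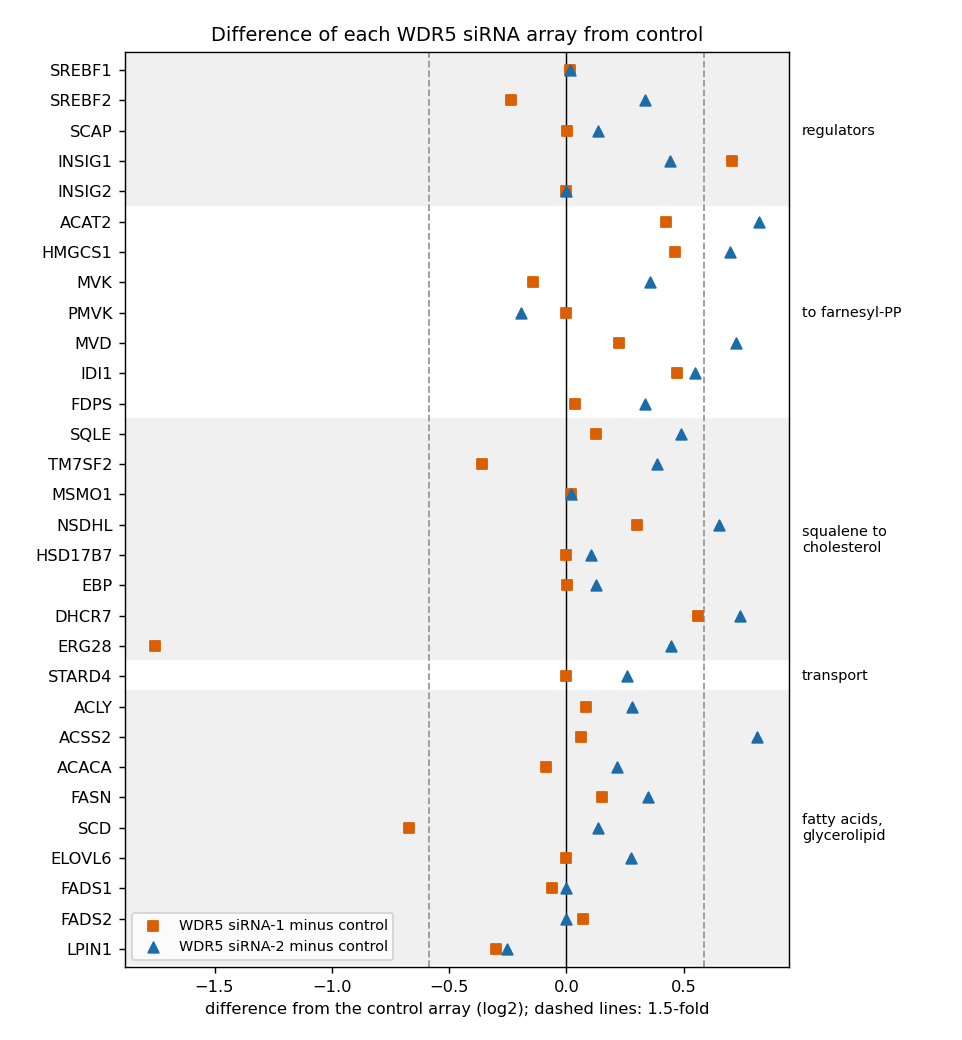
Log2 difference of the WDR5 siRNA-1 array (orange squares) and the WDR5 siRNA-2 array (blue triangles) from the shared control array for each of the 30 genes, ordered along the pathway, with a solid line at 0 and dashed lines at 1.5-fold. The 6 triangles beyond the right-hand line are ACAT2, HMGCS1, MVD, NSDHL, DHCR7 and ACSS2, and the squares beyond the left-hand line are ERG28 and SCD.

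Of the transport genes STARD4, a carrier that moves sterol between membranes, was measured. It was at 10.71 with control and with siRNA-1 and at 10.97 with siRNA-2, which is 1.20-fold above control.

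Among the genes of fatty acid synthesis the median was 0.00 with siRNA-1 and 0.22 with siRNA-2 (9 genes). ACSS2, which makes acetyl-CoA from acetate, had levels of 7.64 with control, 7.70 with siRNA-1 and 8.45 with siRNA-2. The siRNA-2 array alone stood apart, 1.76-fold above control, although these levels lie within the background range. ACLY, which makes cytosolic acetyl-CoA from citrate, was at 12.16, 12.25 and 12.44. ACACA, the acetyl-CoA carboxylase that commits the precursor to fatty acids, was at 10.61, 10.53 and 10.83, and FASN, the fatty acid synthase, at 10.29, 10.45 and 10.64. For these 3 genes siRNA-2 was the highest array, by 1.21-fold, 1.16-fold and 1.27-fold over control. ELOVL6, an elongase, was at 9.88 with control and siRNA-1 and at 10.16 with siRNA-2.

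SCD, the desaturase that introduces a double bond into stearoyl-CoA, went apart from the synthase genes with siRNA-1. It stood at 13.36 with control, 12.69 with siRNA-1 and 13.50 with siRNA-2, so siRNA-1 was 1.59-fold below control and siRNA-2 1.10-fold above it. Its second probe set, at 7.44, 6.19 and 7.97, gave the same order with wider steps, 2.39-fold below and 1.44-fold above control. The levels of that second set lie within the background range, so the size of its steps is uncertain. The polyunsaturated fatty acid desaturases FADS1 (10.28, 10.21 and 10.28) and FADS2 (8.39, 8.46 and 8.39) were exactly equal to control with siRNA-2. LPIN1, a phosphatidate phosphatase of glycerolipid synthesis, was at 9.12, 8.82 and 8.86. Of the 30 genes it was the sole one for which control was the highest array, by 1.23-fold over siRNA-1 and 1.19-fold over siRNA-2.

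A further list of genes from these pathways was read in the same way. Of 50 such genes of sterol handling and fatty acid synthesis, 27 were measured. The 9 sterol genes had medians of 0.00 with each siRNA and 0 members 1.5-fold from control in either direction. Backgrounds were 1.55% higher and 2.77% lower with siRNA-1, and 1.34% and 2.37% with siRNA-2. Of these sterol genes, 6 equalled control exactly with siRNA-1 and 3 with siRNA-2 (backgrounds 43.5% and 46.9%). APOE (4.97) and CH25H (4.31) were tied on all arrays, below the median level of named genes, 6.78. The differences of the 9 sterol genes ranged from -0.42 to 0.01 (log2) with siRNA-1 and from -0.11 to 0.38 with siRNA-2. The 18 fatty acid genes also had medians near 0 (-0.0032 and 0.00), with 7 and 9 of them exactly equal to control. ACACB, ELOVL3, ELOVL7, ACSL5 and ACSL6 were tied on all arrays, at 6.07 or below. With siRNA-2, 1 of the 18 was 1.5-fold higher, or 5.56%, against 1.34% of all named genes. This was ACSL4, which activates long polyunsaturated fatty acids, at 9.86, 9.65 and 10.64, 1.71-fold above control with siRNA-2 and 1.98-fold apart between the siRNAs. MLX, the partner of a glucose-sensing factor that drives lipogenic genes, was at 11.81, 11.37 and 12.00, and its siRNA-1 level was 1.55-fold below its siRNA-2 level.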

How the data were processed

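Total RNA from 3 BE(2)-C cultures was read on Affymetrix arrays. The table deposited by the authors holds 53617 probe sets, and its log2 scale was inferred from a range of 1.34 to 14.9. The submitters' processing notes name MAS5 without a step; background correction, normalization and genome build are not given in the sources used here. Array medians were 5.81, 5.79 and 5.79, and the values were used unscaled. The platform annotation gave 1 gene symbol for 16098 probe sets, several for 0 and none for 37519. All 16098 were found in RefSeq (GRCh38.p14), giving 14884 genes, 779 of them with several probe sets.

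Differences of log2 levels and counts at 1.5-fold were computed in Python 3.11.15 (pandas 2.3.3, numpy 2.4.6) and tested on simulated data with known changes. No low-value filter was applied and no probability was computed. The members, lists and thresholds were chosen with earlier results of these data known. All measured members were named, with WDR5 and other pathway genes at least 1.5-fold apart between any arrays; cell markers and fatty acid oxidation genes were named outside this rule, after their values were seen. Alternatives were quantile normalization, median centring, the mean of probe sets, a median-level filter, list means and other folds.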

Additional observations from a re-analysis of the deposited data

Results flagged for a closer look

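ERG28 and SCD were singled out because the WDR5 siRNA arrays lay on opposite sides of control and at least 1 of them was 1.5-fold from it. The siRNA-1 value minus the siRNA-2 value was -2.20 (log2) for ERG28 and -0.81 for SCD. The difference between the siRNAs was not tested, since each was hybridised once. For SCD the second probe set gave -1.78, at levels within the background range. Of the 9 measured adrenergic markers, DBH (-1.32) and CHGA (-1.20) had the same order of arrays with the widest gaps. PHOX2A (-0.22), GATA2 (-0.37) and CHGB (-0.37) also had this order, and ISL1 (-0.17) was likewise highest with siRNA-2. HAND2 (0.33) and GATA3 (0.30) went the other way, and TH was at 0.00. Their part in these values was not tested.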

How the results depend on the processing

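No paired analysis was possible because each group had 1 array and the comparisons involved no test. Differences were counted as unmoved when they shifted by less than 0.1 (log2), since there was no replicate spread to use. No difference of 1.5-fold or more changed sign, but 3 smaller ones did: the post-squalene list mean and FDPS, given below, and STARD4, whose siRNA-1 difference went from -0.004 to 0.041 with centred arrays. With arrays centred on the median of named genes, genes 1.5-fold higher with siRNA-1 numbered 2 in place of 1. At a lower fold limit (0.32 in log2), 5 genes were above control with siRNA-1 (5.27% of all named genes) and 15 with siRNA-2 (4.47%), and 10 were lower on the siRNA-1 array than on the siRNA-2 array (7.47%). At 2-fold the counts were 0 and 0 higher, 1 lower with siRNA-1 than control (0.632%) and 1 lower than siRNA-2 (0.726%), ERG28 in both cases. The list mean of the post-squalene genes was -0.137 (siRNA-1 minus control) and -0.508 (siRNA-1 minus siRNA-2), against medians of 0.013 and -0.263. The median of all 30 genes with siRNA-2 ranged from 0.305 to 0.355 over the alternatives, and that with siRNA-1 from 0.004 to 0.055. With the mean of probe sets, FDPS moved from 0.035 to -0.214 with siRNA-1 and from -0.300 to -0.483 between the siRNAs. SCD moved from -0.670 to -0.964 with siRNA-1, from 0.137 to 0.332 with siRNA-2 and from -0.807 to -1.296 between them. The number of arrays, and levels within the background range, limit all values.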

Other observations

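Genes of fatty acid oxidation, the opposing route, were measured in 4 of 10 cases and lay below or at control. By any amount, 29.4% of all named genes were lower than control with siRNA-1 and 27.8% with siRNA-2. Exactly equal to control were 43.5% and 46.9%. The median of the 4 oxidation genes was -0.15 with siRNA-1 and -0.37 with siRNA-2 (log2), and 0 were 1.5-fold from control. Backgrounds were 1.55% higher and 2.77% lower with siRNA-1, and 1.34% and 2.37% with siRNA-2. CPT1A, which admits long-chain fatty acids to mitochondria, was at 8.57 with control, 8.19 with siRNA-1 and 8.03 with siRNA-2. CPT2, its inner-membrane partner, was at 7.77, 7.51 and 7.25, although its lower probe set was at 6.67, 6.67 and 6.63. The CPT1A and CPT2 levels lie within the range of the background probe groups. ACAA2, a thiolase, was at 10.74, 10.70 and 10.51, and HADH, a dehydrogenase, was at 9.30 on each array. For CPT1A, CPT2 and ACAA2 the siRNA-2 array was the lowest. That held for 18.1% of all named genes and 28.7% of those at or above the median level. A contrast with the synthesis genes was not tested. All 4 measured genes of this list are given, and they were named after their values were seen.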
